A study of Mus musculus with 34 samples.

Results

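Airway epithelium collected 6 months after the last dose of NNK (t6) was compared with airway epithelium collected when dosing ended (t0), across all genes. The members are the knockout libraries that GEO's labels place at these times, 5 at t6 and 6 at t0, or 11 of the 34 libraries in the series. Both groups were Gprc5a-/- mice, which lack the gene of an orphan G protein-coupled receptor that restrains lung tumour growth. Both had received NNK, a nitrosamine of tobacco, by intraperitoneal injection over 8 weeks, with 50 mg/kg per dose and 3 doses weekly. At t6, the later group, lung adenocarcinomas develop in these animals, per the series design, whereas the brushed tracheal epithelium was cytologically normal. Knockout mice brushed before exposure (baseline, n = 6), and at 2 (t2, n = 5) and 4 months (t4, n = 6), gave the other knockout libraries, and 6 wild-type libraries were not used here. The labels give 1 age range, 6 to 8 weeks, to all groups. No unexposed animals as old as those at t6 enter this comparison, and the effect of age therefore cannot be told apart from that of time since exposure. Each library came from a separate mouse, and libraries are named below by group and animal number.

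The tracheal epithelium is built from basal cells, which are its stem cells, from secretory club and goblet cells, which make secretoglobins and mucins, and from multiciliated cells, which move mucus with dynein-driven cilia. After injury, basal cells divide and can take on a squamous, keratin-rich state before secretory and ciliated cells are rebuilt, and macrophages enter the tissue. NNK is activated by P450 enzymes to species that alkylate DNA. DNA damage stabilises p53, which switches on the cell cycle inhibitor gene Cdkn1a and genes of apoptosis.

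Total counts ran from 24272824 to 37609774 at t6 and from 18574883 to 30271690 at t0. The genders, called here from counts of Y-linked genes, were 3 females and 2 males at t6 and 3 and 3 at t0. Haemoglobin transcripts held 15.3% of the counts in t6 349 and 22.8% in t0 357, and the ribosomal RNA precursor Rn45s held 14.8% in t6 365. Scgb1a1 was at 242 CPM or more and Krt5 at 159 CPM or more in all 11 libraries, so markers of airway secretory and basal cells were present throughout (CPM is the count scaled to library size, with TMM, the trimmed mean of M-values). On principal component 1, which held 35.1% of the variance, t6 libraries lay between −27.4 and −12.3 and t0 libraries between 72.8 and 91.6, except t0 359 at 30.4. Reads on Gprc5a itself (chromosome 6, 135065662 to 135084708, mm10) were few, 136 counts over the t6 libraries and 77 over the t0 libraries. Its levels were 0.76, 1.35, 1.51, 0.548 and 0.115 CPM at t6, against 0.248 to 1.06 CPM with a median of 0.485 at t0. The groups overlapped, and the log2 fold change of 0.65 ± 0.65 (SE) had an adjusted p of 0.45 in edgeR's quasi-likelihood test. Without the libraries of over 10% haemoglobin or Rn45s (t6 349 and 365, t0 357 and t4 371) it was −0.19 (edgeR adjusted p = 0.89).

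At 6 months after exposure ended, the transcripts of ciliated and secretory cells were higher than at its end, and those of basal and squamous cells, p53 targets, mitosis, macrophages, antigen presentation and the interferon response were lower. Of 14847 genes tested, 5744 were called at an adjusted p under 0.05 (38.7%). There were 2697 genes higher at t6 (18.2%) and 3047 lower (20.5%), and 1510 were at least 2-fold higher (10.2%) and 1212 at least 2-fold lower (8.16%). In 3161 called genes (21.3%) the libraries of both groups did not overlap. The median log2 fold change of all genes was −0.06. Scaling by library totals moved it to −0.17 and left 1937 genes higher and 3513 lower, and with haemoglobin genes and Rn45s left out it was 0.04, with 3170 higher and 2382 lower. Without the libraries of over 10% haemoglobin or Rn45s, 2373 genes were higher and 1821 lower. Without t0 359 there were 2853 higher and 3236 lower. Of the called genes 47.0% were higher with TMM scaling, 35.5% with library totals and 57.1% with those transcripts left out. In what follows, a gene rose or fell where it was called, ± after a log2 value is its SE, ± after a CPM value is the SD over 5 libraries at t6 and 6 at t0, and the share of all genes called is the background for every list. Because the tissue was sequenced in bulk, fewer cells of a type and less RNA per cell cannot be told apart.

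**Figure D1:**
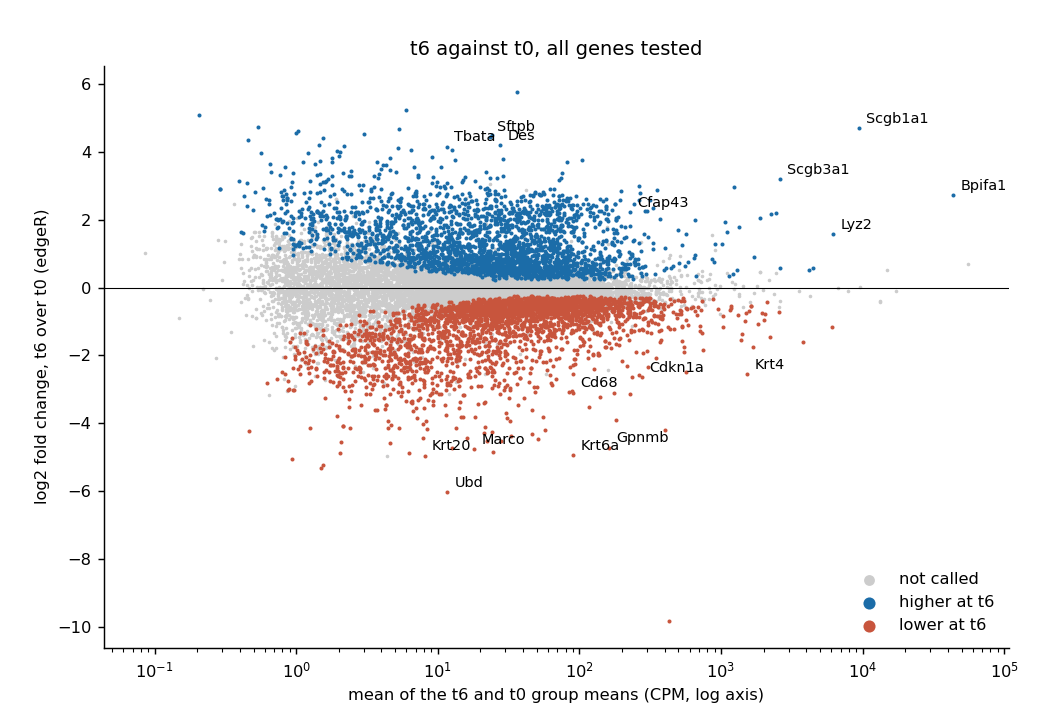
Each point is 1 of the 14847 genes tested: the horizontal axis is the mean of both group means in CPM (log axis) and the vertical axis is the log2 fold change of t6 over t0. Blue points, 2697 genes, were higher at t6, red points, 3047 genes, were lower, and grey points were not called. The lowest point is Spt1, at −9.85.

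**Figure D2:**
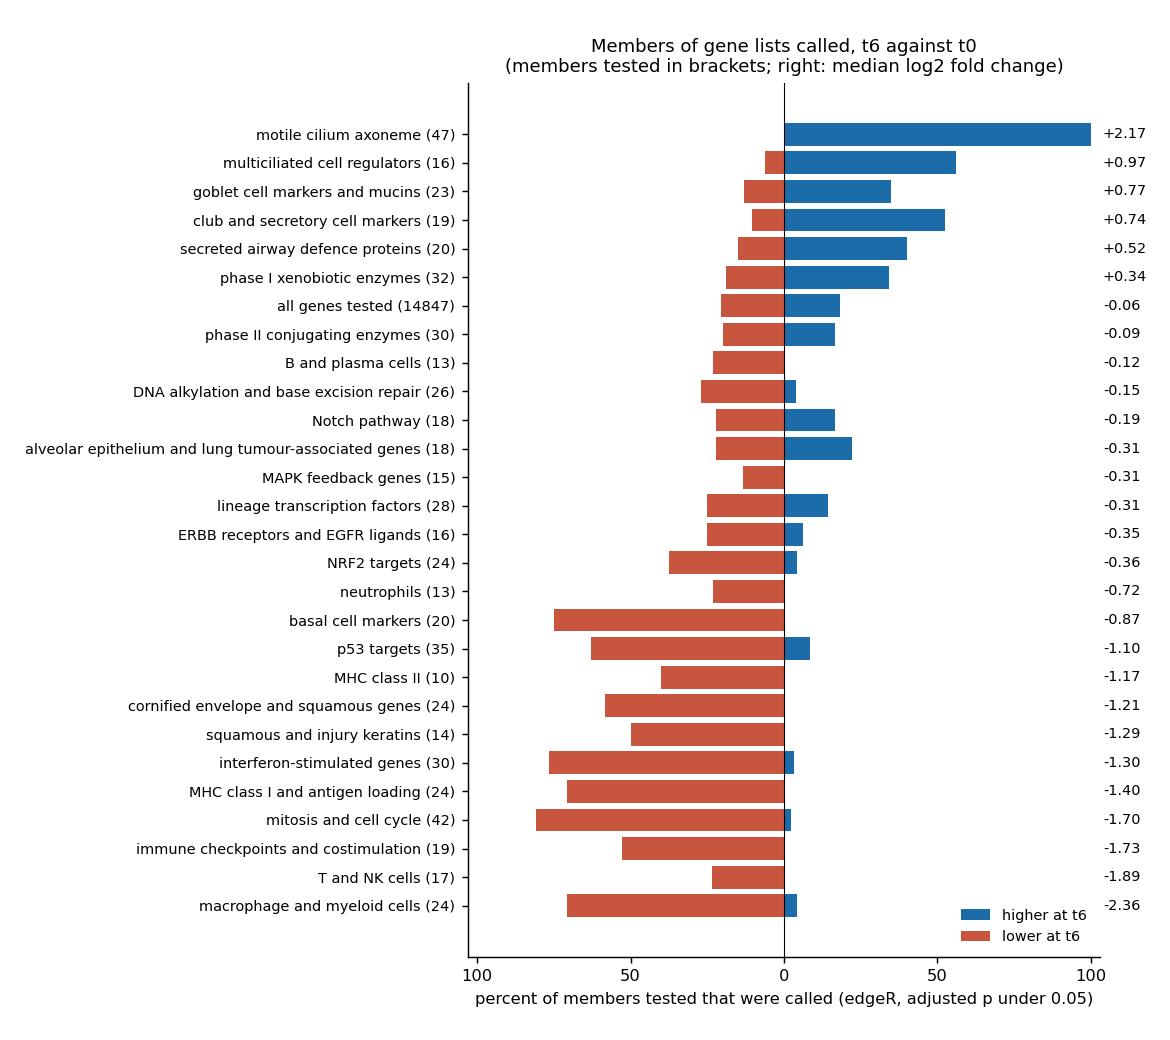
For 27 gene lists and all genes tested, bars give the percentage of tested members called higher (blue, right) or lower (red, left) at t6 than at t0, ordered by median log2 fold change. The axoneme list, with 47 of 47 members higher, is at one end and the macrophage list, with 17 of 24 lower, at the other.

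Genes of the motile cilium rose together. All 47 tested genes of the axoneme list (of 50 in the list, 47 of which the table holds) rose, with a median log2 fold change of 2.17, against 18.2% of all genes higher and a median of −0.06. In 39 of the 47, every t6 library lay above every t0 library, against 10.9% of all genes. The values ran from 1.08 for Spag1, a dynein assembly factor, to 2.89 for Dnah5, the outer-arm dynein heavy chain, which averaged 624 ± 72.2 CPM at t6 and 83.9 ± 86.9 at t0. Cfap43 (chromosome 19, 47736857 to 47837361), an axonemal protein, was at 433, 392, 355, 360 and 338 CPM at t6, against 51.4 to 184 CPM with a median of 60.3 at t0. All t6 libraries were above all t0 libraries, of which t0 359 was the highest and the other 5 were at 73.7 or less (log2 fold change 2.22 ± 0.25, adjusted p = 2.5e-07). Dnaaf3, which assembles dynein arms in the cytoplasm, was at 159, 214, 172, 166 and 128 CPM at t6, against 22.3 to 80.2 CPM with a median of 30.3 at t0, again with t0 359 the highest (2.17 ± 0.24, 2.6e-07). Without t0 359 all 47 members still rose, with a median of 2.70. At t6 the median member stood 0.03 to 0.26 (log2) above its baseline mean in the 5 libraries, whereas at t0 it stood between −2.77 and −0.65.

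Transcription factors that switch on the ciliary programme rose less evenly: 9 of 16 tested regulators rose and 1 fell, with a median of 0.97. Rfx3 (chromosome 19, 27761721 to 27982948), which binds ciliary gene promoters, was at 80.2, 51.7, 38.1, 58.8 and 57.2 CPM at t6, against 9.45 to 29.4 CPM with a median of 11.5 at t0. The groups were apart, with t0 359 nearest to t6 (2.00 ± 0.25, 8.4e-07). Trp73, which encodes the p53 relative p73, was at 61.2, 72.4, 66.1, 61.1 and 49.5 CPM at t6, against 11.9 to 34.7 CPM with a median of 16 at t0, without overlap (1.71 ± 0.21, 7.6e-07). Foxj1, the main activator of motile cilium genes, averaged 847 ± 302 CPM at t6 and 286 ± 159 at t0 (1.57 ± 0.27, 3.8e-05), and Ccdc78, of the structures that multiply centrioles, had the largest value (2.35 ± 0.31). Mcidas, which starts the multiciliated fate, was at 7.8 ± 2.52 CPM at t6 and 12 ± 4.52 at t0 and was not called (−0.62 ± 0.28, 0.081). E2f4, a partner of Mcidas, was the member that fell (−0.56 ± 0.14, 0.0029). Its groups overlapped, at 36.5 to 54.5 CPM at t6 and 53 to 80.6 CPM at t0, and it was not called without the libraries of over 10% haemoglobin or Rn45s (adjusted p = 0.062).

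The core letters of the RFX motif, GTTGCC or their reverse complement GGCAAC, was counted in RefSeq promoters (GRCm38.p6, 250 bases before to 50 after each start). It was present in 15 of the 38 axoneme genes with a promoter in the table (39.5%), against 12.7% of all 27025 promoters. Motifs here and below were chosen after values were seen, and a match is a description of the letters only. Promoters of the outer and inner arm dynein genes Dnaic2 and Dnah10 are shown, chosen by adjusted p among called genes of the list with these letters. Both genes rose without overlap (2.21 ± 0.27 and 2.48 ± 0.30), and the RFX letters are in capitals. Dnah10 lies at chr5:124724835-124725134, plus strand, and Dnaic2 at chr11:114727169-114727468, plus strand.
Dnah10: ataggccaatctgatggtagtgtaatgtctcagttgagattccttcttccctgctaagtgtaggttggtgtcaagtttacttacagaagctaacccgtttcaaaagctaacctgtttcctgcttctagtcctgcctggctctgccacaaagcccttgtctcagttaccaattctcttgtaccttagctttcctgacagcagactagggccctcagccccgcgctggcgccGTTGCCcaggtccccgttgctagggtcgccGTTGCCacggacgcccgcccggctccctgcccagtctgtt
Dnaic2: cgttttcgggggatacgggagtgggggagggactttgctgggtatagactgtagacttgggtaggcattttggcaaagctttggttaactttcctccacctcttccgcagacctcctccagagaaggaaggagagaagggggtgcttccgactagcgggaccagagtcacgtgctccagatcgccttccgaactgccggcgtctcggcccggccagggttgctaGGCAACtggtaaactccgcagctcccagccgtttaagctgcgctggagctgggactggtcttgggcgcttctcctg

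Secretory products rose. In the club cell list 10 of 19 tested genes rose and 2 fell, with a median of 0.74. Scgb1a1 (chromosome 19, 9083642 to 9087956), the club cell secretory protein, was at 13279, 18210, 22086, 29924 and 7401 CPM at t6, against 242 to 1283 CPM with a median of 673 at t0. The lowest t6 library, 368, lay far above the highest at t0 (4.70 ± 0.40, 8.9e-09). Scgb3a1, another secretoglobin, was at 3306, 4429, 4792, 5399 and 5504 CPM at t6, against 274 to 767 CPM with a median of 478 at t0, again without overlap (3.19 ± 0.34, 1.7e-07). Scgb3a2 averaged 3668 ± 1340 CPM at t6 and 818 ± 491 at t0 (2.17 ± 0.34). Not all club cell genes followed: Cyp2f2, a P450 enzyme of club cells, stood at 16576 ± 5604 CPM at t6 and 17785 ± 3948 at t0 (−0.10 ± 0.21, 0.74). The keratin Krt15 fell, at 1275, 2477, 2207, 1782 and 1593 CPM at t6, against 3268 to 7205 CPM with a median of 6112 at t0, without overlap (−1.60 ± 0.33, 0.0004). Against baseline, 11 of the 19 genes were lower at t6 and 0 higher, and 16 were lower and 2 higher at t0, where 4.29% of all genes were lower at t6 and 22.3% at t0. Both counts share the baseline libraries.

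Among goblet cell genes and mucins, 8 of 23 tested rose and 3 fell, with a median of 0.77. The count of 8 was 4 with scaling by library totals, without t6 368 or without 6 libraries that stand apart (t6 349 and 365, t0 357 and 359, t2 339 and t4 371), and 5 without t6 365 or t0 374, without the libraries of over 10% haemoglobin or Rn45s or with no filter on low counts. The gel-forming mucin Muc5b averaged 2229 ± 730 CPM at t6 and 1184 ± 575 at t0 (0.91 ± 0.31, 0.02). The 3 that fell were Muc4, Muc13 and Muc20, mucins that span the cell membrane. Muc20 was at 45.6, 60.7, 60.6, 59.6 and 84.6 CPM at t6, against 91.7 to 184 CPM with a median of 157 at t0, without overlap (−1.30 ± 0.21, 2.5e-05). Muc13 was at 6.62, 4.87, 13.3, 8.98 and 21.2 CPM at t6, against 25.4 to 164 CPM with a median of 73.4 at t0 (−2.94 ± 0.59, 0.00029). All t6 libraries lay below all t0 libraries for Muc13, and its t6 level was above baseline (4.97 ± 0.68, 3.3e-05), where it averaged 0.337 CPM.

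Of 20 tested defence proteins secreted onto the airway, 8 rose and 3 fell, with a median of 0.52. Bpifa1, an abundant surfactant-like protein of the upper airway, was at 64774, 45316, 90536, 105381 and 72096 CPM at t6, against 8607 to 14915 CPM with a median of 10850 at t0. No t6 library came near the t0 range (2.72 ± 0.34, 8.4e-07). Cp, the copper ferroxidase ceruloplasmin, was at 460 to 846 CPM at t6 and 88.8 to 254 CPM at t0 (2.03 ± 0.27, 1.6e-06). Dmbt1, a mucosal scavenger receptor protein that is also a marker of submucosal glands, averaged 3041 ± 1611 CPM at t6 and 738 ± 427 at t0 (2.04 ± 0.47, 0.0011). The protease inhibitor Slpi fell (−2.30 ± 0.69, 0.0093), as did the defensin Defb1, whose groups overlapped at 9.94 to 11.9 CPM at t6 and 10.7 to 22.4 CPM at t0 (−0.61 ± 0.17, 0.0054).

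**Figure D3:**
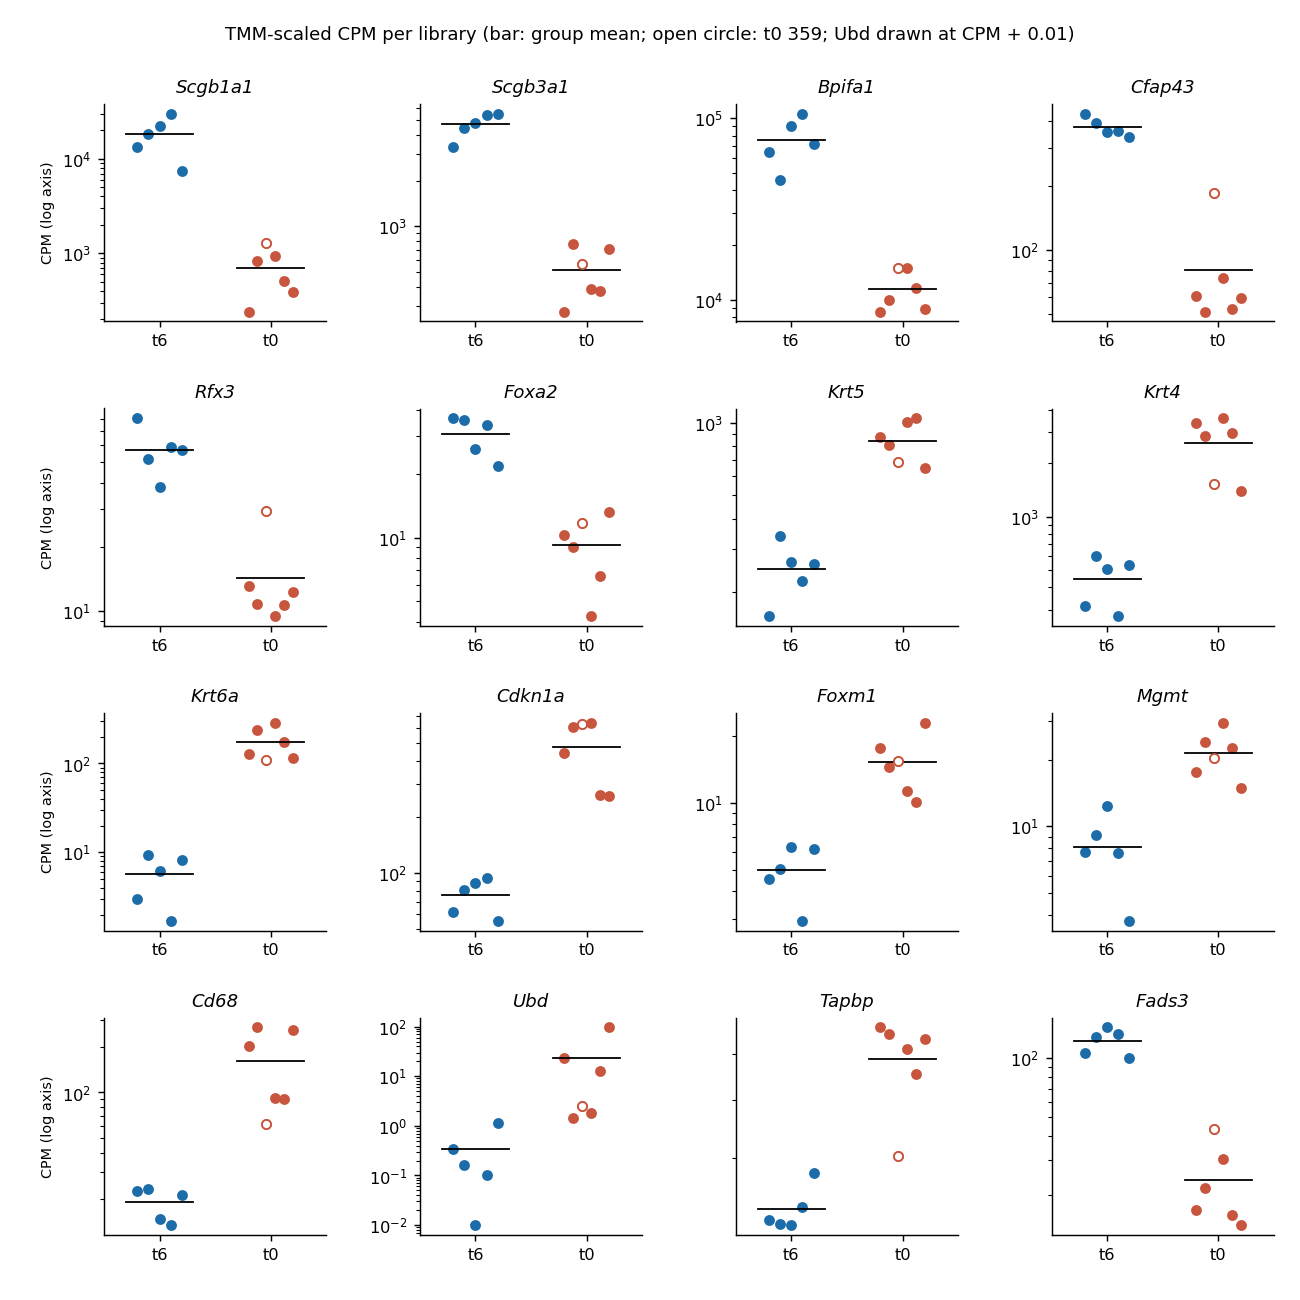
TMM-scaled CPM of 16 genes in each library, with t6 (blue, n = 5) left of t0 (red, n = 6) on log axes, the group mean as a bar and t0 359 as an open circle; Ubd is drawn at CPM + 0.01. In each of these 16 genes the ranges of both groups are apart, and t0 359 lies nearest to the t6 libraries for Scgb1a1, Cfap43, Rfx3, Krt6a, Cd68, Tapbp and Fads3. The 16 were picked from genes named by a rule, given below, that in part required no overlap. Of the 100 called genes so named, 84 were without overlap, whereas 21.3% of all genes tested were called without overlap.

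Basal cell genes fell. Of 20 tested, 15 fell and 0 rose, with a median of −0.87, against 20.5% of all genes lower. Krt5 (chromosome 15, 101707070 to 101712891), the basal keratin, was at 159, 339, 266, 221 and 262 CPM at t6, against 649 to 1040 CPM with a median of 838 at t0. The groups did not overlap (−1.76 ± 0.30, 3.9e-05). Aqp3, a water and glycerol channel of basal cells, was at 178, 345, 244, 268 and 126 CPM at t6, against 658 to 1060 CPM with a median of 897 at t0 (−1.89 ± 0.31, 2.1e-05). Its levels at t6 were near the baseline mean of 226 CPM (0.04 ± 0.29 against baseline). The basal master regulator Trp63 averaged 25.7 ± 5.44 CPM at t6 and 48.2 ± 9.28 at t0 (−0.91 ± 0.20, 0.00069). Krt14, the partner of Krt5, fell less certainly (−1.15 ± 0.46, 0.048) and averaged 67.3 ± 28.1 CPM at t6, 149 ± 47.7 at t0 and 6.33 at baseline.

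Squamous and injury keratins gave 7 lower and 0 higher of 14 tested, with a median of −1.29. Krt4 (chromosome 15, 101918535 to 101924735), a keratin of stratified mucosa, was at 313, 604, 506, 276 and 533 CPM at t6, against 1393 to 3580 CPM with a median of 2912 at t0. The ranges were apart (−2.55 ± 0.31, 7.7e-07), and the t6 level was above the baseline mean of 129 CPM (1.79 ± 0.29, 0.00024). Krt6a, a wound keratin, was at 3, 9.34, 6.16, 1.71 and 8.3 CPM at t6, against 110 to 286 CPM with a median of 150 at t0 (−4.94 ± 1.10, 0.00097). It shares reads with its near copy Krt6b, and how such reads were counted is not given. Krt20, a keratin of gut and bladder epithelium, was at 0, 1.32, 0.616, 0.213 and 0.316 CPM at t6, against 9.39 to 23.6 CPM with a median of 15.6 at t0 (−4.96 ± 0.81, 2.4e-05, and −5.73 without t6 349). Krt23 was at 51.4 to 108 CPM at t6 and 185 to 385 CPM at t0 (−1.78 ± 0.23, 1.1e-06).

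Cornified envelope genes, which build the tough shell of squamous cells, gave 14 lower and 0 higher of 24 tested, and in 13 of the 24 all t6 libraries lay below all t0 libraries, against 12.1% of all genes. Evpl, the cross-linked scaffold envoplakin, was at 76.8, 107, 132, 112 and 78.1 CPM at t6, against 238 to 781 CPM with a median of 563 at t0 (−2.34 ± 0.25, 1.6e-07). Desmoplakin, Dsp, was at 246 to 300 CPM at t6 and 372 to 623 CPM at t0 (−0.89 ± 0.15, 4e-05). Nccrp1 had the largest value (−3.84 ± 0.74), at 4 ± 2.21 CPM at t6 and 57.5 ± 41.9 at t0. Against baseline, 10 members of this list were higher and 1 lower at t6, and 15 were higher and 1 lower at t0, where 4.54% of all genes were higher at t6 and 23.3% at t0. Serpinb2, for example, averaged 27.4 ± 18.4 CPM at t6, 116 ± 33.2 at t0 and 0.929 at baseline.

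Targets of p53 fell. Of 35 tested, 22 fell and 3 rose, with a median of −1.10. Cdkn1a (chromosome 17, 29090986 to 29100722), which encodes the cell cycle inhibitor p21, was at 61.6, 81.2, 88.2, 93.6 and 55.4 CPM at t6, against 258 to 642 CPM with a median of 525 at t0. Every t6 library was below every t0 library (−2.64 ± 0.25, 5.3e-08). Zmat3, a p53-induced RNA-binding protein, was at 16.4, 14.5, 13.5, 13.9 and 17.4 CPM at t6, against 31.7 to 52.3 CPM with a median of 45.4 at t0, also apart (−1.54 ± 0.13, 1.3e-08). Gdf15, a stress-induced growth factor, had the largest value (−4.54 ± 0.74), at 1.85 ± 0.265 CPM at t6 and 43 ± 28.6 at t0. The apoptosis genes Pmaip1 (−2.49 ± 0.46) and Bax (−1.45 ± 0.25) fell, as did Trp53 itself (−1.23 ± 0.22), while Mdm2, its inhibitor, was at 89.7 ± 11.7 CPM at t6 and 80.8 ± 20.5 at t0 (0.15 ± 0.16, 0.49). The 3 that rose were the translesion polymerase Polk, the ribonucleotide reductase subunit Rrm2b and the damage-binding protein Ddb2. Polk was at 64.3, 44.3, 46.3, 41 and 70.8 CPM at t6, against 21.9 to 52.3 CPM with a median of 24.2 at t0 (0.90 ± 0.19, 0.00053). Only t0 359 reached into its t6 range.

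Repair genes for alkylated bases gave 7 lower and 1 higher of 26 tested, with a median of −0.15, and 4 lower without the libraries of over 10% haemoglobin or Rn45s. The share called was 30.8%, below the 38.7% of all genes, of which 20.5% were lower. Mgmt (chromosome 7, 136894611 to 137128188), which removes methyl groups from guanine, was at 7.67, 9.16, 12.3, 7.55 and 3.76 CPM at t6, against 14.9 to 29.3 CPM with a median of 21.4 at t0. The groups were apart (−1.41 ± 0.22, 1.5e-05), and the baseline mean was 7.85 CPM. Ogg1, the glycosylase for oxidised guanine, rose, at 27.8, 31.4, 37.3, 30.2 and 24.2 CPM at t6, against 10.6 to 18.4 CPM with a median of 12 at t0 (1.25 ± 0.18, 5.7e-06). All of its t6 libraries lay above all of its t0 libraries.

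Mitotic and replication genes fell. Of 42 tested, 34 fell and 1 rose, with a median of −1.70, and in 29 the t6 libraries lay below all t0 libraries. Foxm1 (chromosome 6, 128362994 to 128375886), the transcription factor of mitotic genes, was at 4.52, 5.05, 6.31, 2.95 and 6.18 CPM at t6, against 10.1 to 22.9 CPM with a median of 15 at t0, without overlap (−1.61 ± 0.23, 4.6e-06). Mcm5, a subunit of the replicative helicase, was at 5.03, 6.15, 4.87, 5.09 and 6.69 CPM at t6, against 13.7 to 33 CPM with a median of 20.2 at t0 (−1.95 ± 0.29, 7.7e-06). Mki67, the proliferation marker Ki-67, averaged 10.3 ± 3.91 CPM at t6 and 65.3 ± 31.6 at t0 (−2.66 ± 0.42, 1.8e-05). Nek2, a centrosome kinase, was the member that rose, at 146, 102, 109, 99.4 and 125 CPM at t6, against 24.3 to 59.2 CPM with a median of 35.1 at t0 (1.67 ± 0.27, 2.4e-05). Its groups did not overlap.

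The cell cycle homology region, the letters TTTGAA or TTCAAA, through which mitotic genes are repressed in resting cells, was present in 16 of the 33 genes of this list with a promoter in the table (48.5%), against 18.1% of all promoters. Cdc20, which activates the anaphase-promoting complex, fell (−2.12 ± 0.32, 9.6e-06). Its promoter and that of Mki67 are shown, chosen in the same way as the dynein promoters, with the letters in capitals. Both genes fell without overlap. Cdc20 lies at chr4:118437294-118437593, minus strand, and Mki67 at chr7:135716330-135716629, minus strand.
Cdc20: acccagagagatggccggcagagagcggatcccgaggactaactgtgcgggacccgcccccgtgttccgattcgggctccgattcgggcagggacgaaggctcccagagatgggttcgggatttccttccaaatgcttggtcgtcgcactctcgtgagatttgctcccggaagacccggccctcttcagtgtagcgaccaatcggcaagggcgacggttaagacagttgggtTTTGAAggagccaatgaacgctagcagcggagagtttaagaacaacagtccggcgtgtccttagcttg
Mki67: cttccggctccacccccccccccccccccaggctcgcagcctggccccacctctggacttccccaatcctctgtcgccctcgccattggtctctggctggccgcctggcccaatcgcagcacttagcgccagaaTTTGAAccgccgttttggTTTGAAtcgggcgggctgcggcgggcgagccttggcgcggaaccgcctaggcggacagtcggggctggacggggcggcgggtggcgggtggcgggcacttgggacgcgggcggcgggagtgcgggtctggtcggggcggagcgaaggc

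Enzymes that metabolise NNK and other foreign compounds moved both ways. Among 32 tested phase I enzymes, 11 rose and 6 fell, with a median of 0.34. Ces1f (chromosome 8, 93256236 to 93279736), a carboxylesterase with near-identical neighbours, was at 93.2, 130, 162, 93.4 and 70.1 CPM at t6, against 6.64 to 31 CPM with a median of 12.3 at t0 (2.91 ± 0.38, 1.6e-06). The flavin monooxygenase Fmo1 had the largest value (3.14 ± 0.54). Ephx1, the microsomal epoxide hydrolase, which the p53 list also holds, was at 221, 198, 254, 248 and 152 CPM at t6, against 315 to 678 CPM with a median of 534 at t0, without overlap (−1.27 ± 0.19, 5.5e-06). Of 30 tested conjugating enzymes, 5 rose and 6 fell, with a median of −0.09, and the 6 were 3 without t6 341, t0 357 or t0 367 and without the libraries of over 10% haemoglobin or Rn45s. The shares called were 53.1% of phase I and 36.7% of conjugating enzymes, against 38.7% of all genes. The sulfotransferase Sult1c1 was at 62.4, 19, 59.7, 61.9 and 68.6 CPM at t6, against 1.9 to 6.12 CPM with a median of 3.97 at t0 (3.80 ± 0.55, 6e-06), with t6 349 lowest in its group. Gsto1, a glutathione transferase, was at 3259 to 4179 CPM at t6 and 7012 to 11317 CPM at t0 (−1.16 ± 0.17, 6.2e-06). Targets of the oxidant sensor NRF2 gave 9 lower and 1 higher of 24, or 41.7% called. The ferritin heavy chain Fth1 was at 718 to 1461 CPM at t6 and 1629 to 3365 CPM at t0 (−1.07 ± 0.16, 9.6e-06), and the pentose phosphate enzyme Taldo1 was at 252 to 288 CPM at t6 and 340 to 573 CPM at t0 (−0.83 ± 0.13, 1.4e-05). The exporter Abcc1 rose (0.58 ± 0.13, 0.0011), whereas Nqo1, a classical NRF2 target, was at 22.1 ± 6.72 CPM at t6 and 19.1 ± 6.63 at t0 (0.21 ± 0.28, 0.59).

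Macrophage genes fell. Of 24 tested, 17 fell and 1 rose, with a median of −2.36. Cd68 (chromosome 11, 69664213 to 69666170), the lysosomal macrophage marker, was at 22.3, 23.1, 14.8, 13.4 and 21.1 CPM at t6, against 62.1 to 268 CPM with a median of 147 at t0. The groups were apart, with t0 359 lowest at t0 (−3.10 ± 0.39, 1.1e-06). Laptm5, a lysosomal protein of leukocytes, was at 26.6, 36.2, 13, 20.4 and 36.4 CPM at t6, against 89.4 to 482 CPM with a median of 200 at t0 (−3.24 ± 0.48, 9.2e-06). Marco, a scavenger receptor of alveolar macrophages, was at 1.19, 2.08, 0.339, 1.31 and 1.46 CPM at t6, against 7.06 to 80 CPM with a median of 23.6 at t0 (−4.77 ± 1.00, 0.00045). Csf1r, the macrophage growth factor receptor, stood at 40.2 ± 6.26 CPM at t6 and 55.3 ± 20 at t0 and was not called (−0.46 ± 0.21, 0.087). Lyz2, a lysozyme of macrophages and of lung epithelium, rose, at 5760, 8311, 10472, 10400 and 11422 CPM at t6, against 1595 to 5410 CPM with a median of 2504 at t0 (1.58 ± 0.30, 0.00013). Its t6 values were all higher. The summed level of the list, with Lyz2 in it, was 6668 to 12465 CPM at t6 and 3830 to 10281 CPM at t0.

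Other leukocyte lists had fewer called members, all lower: 23.1% of neutrophil, 23.5% of T and NK cell and 23.1% of B and plasma cell genes. These shares were near the 20.5% of all genes that were lower. The median log2 fold changes differed, at −0.72, −1.89 and −0.12 in the same order, against −0.06 for all genes. Over the alternatives these medians ran from −3.30 to −0.40, from −2.30 to −0.38 and from −0.40 to 0.43. Neutrophil genes gave 3 lower of 13 (6 with limma on log2 CPM at either pseudocount or after quantile normalization, and 7 with limma voom and quality weights), the formyl peptide receptors Fpr1 (−4.58 ± 0.98, 0.00054) and Fpr2 (−3.95 ± 0.90, 0.001) and the lectin Clec4d. Fpr1 was at 0.579, 0.827, 0.0924, 0.152 and 0.172 CPM at t6, against 3.38 to 20.5 CPM with a median of 6.1 at t0, and Fpr2 at 0 to 0.977 CPM at t6 and 2.21 to 14.2 CPM at t0. The granule genes S100a8 (−0.27) and S100a9 (−0.44) were not called. T and NK cell genes gave 4 lower of 17, but 1 without t6 341, 365 or 368 or t0 375, 2 without t6 349, 7 without t0 367 and 9 without t0 359. It was also 1 without the libraries of over 10% haemoglobin or Rn45s. Cd2, an adhesion receptor of T cells, was at 1.52, 2.85, 1.57, 1.74 and 2.61 CPM at t6, against 4.64 to 27.5 CPM with a median of 12.6 at t0 (−2.75 ± 0.62, 0.00087). Cd3d, of the T cell receptor complex, was at 0.277 to 1.1 CPM at t6 and 0.607 to 13.7 CPM at t0. Its value of −2.46 ± 0.87 (0.026) became −1.08 without t0 375 (0.28), and the call was also lost without t6 341, 365 or 368. B and plasma cell genes gave 3 lower of 13, with a median of −0.12, and 1 lower without the libraries of over 10% haemoglobin or Rn45s. Cd22, a B cell lectin, was at 1.7, 4.68, 1.14, 0.822 and 6.75 CPM at t6, against 8.58 to 45 CPM with a median of 27.6 at t0 (−3.16 ± 0.76, 0.0017), but Cd79a (1.45) was not called. Prdm1, a plasma cell regulator that epithelia also use, was at 1.28 to 3.33 CPM at t6 and 2.73 to 13.6 CPM at t0 (−1.97 ± 0.59, 0.0095), and was not called without the libraries of over 10% haemoglobin or Rn45s (0.062).

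Antigen presentation fell at MHC class I. Of 24 tested genes, 17 fell and 0 rose, with a median of −1.40. Tapbp (chromosome 17, 33919478 to 33929290), which loads peptides onto class I molecules, was at 221, 217, 216, 236 and 279 CPM at t6, against 304 to 571 CPM with a median of 527 at t0. The groups were apart, with t0 359 the lowest (−1.07 ± 0.14, 1.6e-06). Tap2, a subunit of the peptide transporter, was at 62.1, 82.1, 79.2, 80.9 and 67 CPM at t6, against 100 to 269 CPM with a median of 140 at t0 (−1.20 ± 0.20, 2.3e-05). The heavy chain genes H2-D1 (−1.46 ± 0.33) and H2-K1 (−0.95 ± 0.30), which share reads with close copies, and B2m (−1.35 ± 0.43) fell, with overlapping groups. Among 10 tested class II genes 4 fell, but 1 without t6 341, 365 or 366, 0 without t0 375 or without the libraries of over 10% haemoglobin or Rn45s, and 6 without t0 359. Cd74, the invariant chain, was at 171 to 392 CPM at t6 and 232 to 2121 CPM at t0 (−1.59 ± 0.51, 0.016). Without t0 375 it stood at −1.0 (0.091). H2-Ab1 was at 80.7 to 182 CPM at t6 and 100 to 743 CPM at t0 (−1.40 ± 0.48, 0.023). Its call was lost without t0 375 (0.1) or without t6 341, 365 or 366.

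Genes induced by interferon fell. Of 30 tested, 23 fell and 1 rose, with a median of −1.30. Oasl1 (chromosome 5, 114923240 to 114937911), an oligoadenylate synthetase-like protein, was at 11.1, 9, 10.1, 3.35 and 14.8 CPM at t6, against 38.3 to 73.2 CPM with a median of 41.7 at t0, without overlap (−2.28 ± 0.34, 9.1e-06). Stat2, which carries the signal of type I interferon, was at 49.2, 46.5, 41.1, 36 and 41.6 CPM at t6, against 79.9 to 143 CPM with a median of 105 at t0 (−1.34 ± 0.21, 1e-05), and its t6 level was below baseline (−0.77 ± 0.20, 0.016). In this list 11 genes were lower and 0 higher at t6 than at baseline, and 3 were lower and 10 higher at t0. The chemokine Cxcl10 fell (−3.93 ± 1.04), as did Isg15 (−2.21 ± 0.45). Ifi35 rose, with overlapping groups of 75.9 to 119 CPM at t6 and 46.3 to 82.2 CPM at t0 (0.49 ± 0.15, 0.012), and was not called without t6 365 (0.06) or with scaling by library totals.

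The core of the interferon response element, GAAA, any 2 bases and GAAA again, or TTTC, any 2 bases and TTTC on the other strand, was present in 13 of 22 genes of this list with a promoter in the table (59.1%), against 3.49% of all promoters. Promoters of Stat2 and of Ddx58, the RNA sensor RIG-I, are shown, chosen in the same way as the dynein promoters, with the element in capitals. Both genes fell without overlap (Ddx58 −1.19 ± 0.19, 2.2e-05). Stat2 lies at chr10:128270248-128270547, plus strand, and Ddx58 at chr4:40239776-40240075, minus strand.
Stat2: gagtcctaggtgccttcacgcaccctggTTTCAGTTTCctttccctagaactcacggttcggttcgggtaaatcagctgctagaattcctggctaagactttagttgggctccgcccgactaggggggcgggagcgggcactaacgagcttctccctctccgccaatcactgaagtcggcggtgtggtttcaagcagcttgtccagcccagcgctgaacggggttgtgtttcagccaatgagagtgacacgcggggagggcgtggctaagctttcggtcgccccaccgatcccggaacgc
Ddx58: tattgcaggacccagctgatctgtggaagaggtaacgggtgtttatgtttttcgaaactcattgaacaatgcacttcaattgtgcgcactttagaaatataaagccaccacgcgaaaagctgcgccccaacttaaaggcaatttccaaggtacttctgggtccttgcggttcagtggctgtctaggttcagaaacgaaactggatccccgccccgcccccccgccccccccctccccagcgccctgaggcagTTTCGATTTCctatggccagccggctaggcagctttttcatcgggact

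Immune checkpoint and costimulation genes gave 10 lower and 0 higher of 19, with a median of −1.73. The count was 6 without t0 375, and 4 without the libraries of over 10% haemoglobin or Rn45s or with a filter of 5 CPM. Cd80, a costimulator on antigen-presenting cells, was at 2.64, 1.75, 1.91, 1.19 and 2.53 CPM at t6, against 10 to 16.2 CPM with a median of 12.6 at t0, without overlap (−2.69 ± 0.50, 0.0001). Icosl, another costimulatory ligand, was at 5.2 to 10 CPM at t6 and 8.31 to 32.6 CPM at t0, with overlap (−1.19 ± 0.29, 0.0019). Cd274, which encodes PD-L1, fell less certainly (−0.87 ± 0.34, 0.046), at 15.3 ± 3.08 CPM at t6 and 27.9 ± 12.5 at t0. Of 22 tested NF-kB and interleukin-1 genes 15 fell and 0 rose, with 8 lower without the libraries of over 10% haemoglobin or Rn45s. The NF-kB subunit Nfkb2 was at 24.2 to 43.6 CPM at t6 and 66.7 to 133 CPM at t0 (−1.44 ± 0.24, 3.2e-05). Chemokine ligands gave 9 lower and 3 higher of 22, and the mucosal chemokine Ccl28 was among those that rose, at 54, 17.6, 43.3, 68.3 and 96.4 CPM at t6, against 7.44 to 16.1 CPM with a median of 9.98 at t0 (2.36 ± 0.35, 8.6e-06). The other chemokines that rose were Cxcl15 and Cxcl17, which are made by lung and mucosal epithelium, whereas Ccl20 (−3.77 ± 0.93) and Cxcl9 (−4.13) fell.

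Growth and lineage genes showed no common direction. The shares called were 31.2% of ERBB, 13.3% of MAPK feedback, 38.9% of Notch and 39.3% of lineage genes. None was far above the 38.7% of all genes called. Of 16 tested genes of ERBB signalling, 4 fell and 1 rose, and 2 fell without the libraries of over 10% haemoglobin or Rn45s. Hras was at 49.9 to 136 CPM at t6 and 126 to 212 CPM at t0 (−0.67 ± 0.18, 0.0036), Braf was at 34.6 to 57.7 CPM at t6 and 25.7 to 40.6 CPM at t0 (0.42 ± 0.13, 0.013), and both overlapped. Braf was not called without t6 368 (0.072) or with scaling by library totals. Of 15 feedback genes of the MAPK cascade 2 fell and 0 rose, and 1 fell without the libraries of over 10% haemoglobin or Rn45s. Notch pathway genes gave 3 higher and 4 lower of 18. Hey1, a Notch target, was at 45.7, 56.5, 46.9, 57.5 and 38.1 CPM at t6, against 8.1 to 24.7 CPM with a median of 13.2 at t0 (1.72 ± 0.21, 6.9e-07). The receptor Notch1 (chromosome 2, 26457902 to 26503822) moved the other way, at 42.4, 69.9, 63.6, 74.3 and 49.4 CPM at t6, against 118 to 162 CPM with a median of 140 at t0, and neither gene overlapped (−1.23 ± 0.16, 1.6e-06). Of 28 lineage transcription factors 4 rose and 7 fell. Foxa2, a forkhead factor of airway epithelium, was at 36.5, 35.7, 26.2, 33.9 and 21.7 CPM at t6, against 4.26 to 13.2 CPM with a median of 9.64 at t0, without overlap (1.74 ± 0.29, 3.1e-05). Hopx, a homeodomain protein, was at 117 to 203 CPM at t6 and 273 to 430 CPM at t0 (−1.09 ± 0.15, 3.1e-06), while Nkx2-1, the lung lineage factor, was at 86.7 ± 12.7 CPM at t6 and 98.8 ± 13.3 at t0 (−0.19 ± 0.16, 0.38).

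Alveolar and lung tumour-associated genes gave 4 higher and 4 lower of 18. The share called, 44.4%, was near the 38.7% of all genes, and the median was −0.31, against −0.06 for all genes. The 4 that rose were the surfactant protein genes Sftpa1, Sftpb and Sftpc and the surfactant lipid transporter gene Abca3. Sftpb, surfactant protein B, was at 63.6, 68.7, 37.2, 42.6 and 11.2 CPM at t6, against 0.273 to 3.45 CPM with a median of 2.07 at t0. All t6 libraries were above all t0 libraries (4.45 ± 0.63, 5.1e-06), and the baseline mean was 47.5 CPM (−0.09 ± 0.54 at t6 against baseline). Sftpc, the defining marker of alveolar type II cells, averaged 16.4 ± 7.65 CPM at t6 and 2.94 ± 2.18 at t0 (2.47 ± 0.46, 0.00012), with overlap. The carcinoembryonic antigen gene Ceacam1 fell (−1.22), as did the water channel Aqp5 (−1.37) and the protease Napsa (−1.87).

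Sterol synthesis genes rose. Of 20 tested genes 15 rose and 0 fell, with a median of 0.97. Sqle (chromosome 15, 59315092 to 59331193), which encodes squalene epoxidase, was at 138, 104, 109, 87.1 and 148 CPM at t6, against 22 to 61.7 CPM with a median of 27.5 at t0, without overlap (1.84 ± 0.20, 1.7e-07). Insig1, which restrains the pathway, rose too (1.72 ± 0.19, 2.7e-07). The letters TCACNCCAC of the sterol response element, or GTGGNGTGA, were in 1 of 13 promoters of the list (7.69%), against 1.22% of all promoters. That promoter, of an early enzyme of the pathway, Hmgcs1 (1.07 ± 0.21, 0.00017), lies at chr13:119690101-119690400, plus strand, and its element is in capitals.
Hmgcs1: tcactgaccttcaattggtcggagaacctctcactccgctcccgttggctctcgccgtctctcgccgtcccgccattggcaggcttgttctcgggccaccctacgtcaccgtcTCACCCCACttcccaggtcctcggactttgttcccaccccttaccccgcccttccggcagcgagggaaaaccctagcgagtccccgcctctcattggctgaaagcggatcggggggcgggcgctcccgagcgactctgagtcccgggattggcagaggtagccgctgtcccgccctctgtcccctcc

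Hypoxia and glycolysis genes moved both ways, 9 higher and 6 lower of 24. The mitophagy receptor Bnip3 was at 53.2, 38.6, 48.1, 42.5 and 50 CPM at t6, against 5.93 to 20.1 CPM with a median of 7.58 at t0 (2.29 ± 0.24, 1.2e-07), whereas the glycolytic Ldha averaged 385 ± 95.8 CPM at t6 and 742 ± 266 at t0 (−0.95 ± 0.18). Of 18 clock genes 6 rose and 4 fell. Cry2, a clock repressor, was at 87.3 to 96.6 CPM at t6 and 21.6 to 47.1 CPM at t0 (1.65 ± 0.25, 1.1e-05), Dbp rose (2.84 ± 0.58) and Arntl fell (−1.06 ± 0.29), and the hour of collection is not given in the labels. Heat shock genes gave 8 lower and 1 higher of 17, and 5 lower without t6 341 or without the libraries of over 10% haemoglobin or Rn45s. The inducible Hspa1a and Hspa1b, which share reads, fell (−1.98 ± 0.71 and −2.58 ± 0.79), and Hspa4l rose, with t0 359 at 125 CPM inside its t6 range of 99.7 to 143 CPM (0.92 ± 0.22, 0.0017). Among chaperones and unfolded protein response genes 5 fell and 2 rose of 20, with the asparagine synthetase Asns higher (0.95 ± 0.20, 0.0005). Tight junction genes gave 9 lower and 2 higher of 16. The largest fall was that of Cldn4 (−1.55), and the smallest p was that of the scaffold Tjp3 (−0.86 ± 0.14, 2.3e-05) at 150 to 180 CPM at t6 and 229 to 384 CPM at t0. Of 22 Wnt receptor and target genes 6 rose and 2 fell. Lgr6, a receptor for R-spondins, was at 45.1, 104, 106, 146 and 56 CPM at t6, against 14.4 to 39.1 CPM with a median of 23.7 at t0 (1.83 ± 0.25, 2.8e-06), without overlap. Respiratory chain genes gave 4 higher and 7 lower of 40, among them Atp5d, of ATP synthase (−0.45 ± 0.12, 0.0028), and 2 lower with only the t6 and t0 libraries fitted. Ribosomal protein genes, whose pseudogenes share reads, gave 11 lower of 46, with the smallest p for Rplp2 (−1.05 ± 0.23, 0.00058), and 20 with scaling by library totals, 6 without t6 341 or 368 and 7 without t0 332 or 374. For Atp5d and Rplp2 the groups overlapped. Immediate early genes gave 2 lower and 0 higher of 19, Fosl2 (−0.94) and Myc (−1.80 ± 0.57). The share called was above the 38.7% of all genes for the hypoxia, clock, heat shock and tight junction lists. For the unfolded protein response, Wnt, respiratory chain, ribosomal protein and immediate early lists it was below 38.7%. By share called, these lists therefore did not stand out from all genes.

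Among lists of rarer cells and glands the shares called were uneven, where 38.7% of all genes were called, 18.2% higher and 20.5% lower. Ionocyte and proton pump genes and salivary products had shares near that background, and neuroendocrine genes had a smaller share. Of 12 tested tuft cell genes, 6 fell and 0 rose. The signalling phospholipase Plcb2, which leukocytes also express, was at 7.38, 9.98, 3.6, 5.54 and 4.85 CPM at t6, against 15 to 74.2 CPM with a median of 48.1 at t0 (−2.89 ± 0.37, 1.1e-06), and the tuft cell master factor Pou2f3 fell (−1.53 ± 0.33, 0.0005), but the defining channel Trpm5 (−0.76) was not called. Proton pump genes of ionocytes gave 3 higher and 2 lower of 12. Atp6v1c2, a pump subunit, was at 103, 87.8, 115, 114 and 37.8 CPM at t6, against 7.48 to 29.9 CPM with a median of 16 at t0 (2.40 ± 0.27, 2.6e-07), while the ionocyte factor Foxi1 (−0.95) and Cftr (−0.59) were not called. Neuroendocrine genes gave 3 lower of 15, among them the granin Chgb (−1.31 ± 0.45, 0.022), whose call was lost without t6 349, t6 368 or t0 374. The count was 1 without t6 341, 349 or 365 or t0 357, and 0 without t6 368 or t0 374 or without the libraries of over 10% haemoglobin or Rn45s. Submucosal gland genes gave 4 higher, with the smallest p for Dmbt1 and the largest value for Prb1 (3.85), and 2 lower of 12. Of 8 tested salivary products Amy1 rose (2.16 ± 0.25, 4.4e-07), and 2 fell, Spt1 (−9.85 ± 3.24, 0.019) and Klk1, neither of which was called without t0 375 or without the libraries of over 10% haemoglobin or Rn45s. Spt1 averaged 0.974 ± 2.13 CPM at t6 and 861 ± 2110 at t0. Mast cell genes gave 4 higher of 7, all without overlap. Hdc, which makes histamine and is expressed by other cells too, was at 211, 223, 312, 340 and 236 CPM at t6, against 45.3 to 155 CPM with a median of 75.8 at t0 (1.60 ± 0.28, 4.7e-05), and the mast cell protease Mcpt4 averaged 3.84 ± 3.3 CPM at t6 and 0.519 ± 0.364 at t0.

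Muscle transcripts moved with the group and with single libraries. Of 24 striated muscle genes 20 rose and 0 fell, with a median of 3.26. The summed level of the 28 genes of the list was 1096, 62.5, 628, 2932 and 1630 CPM in t6 341, 349, 365, 366 and 368, against 36.4 to 364 CPM with a median of 61.4 at t0, so that t6 349 lay inside the t0 range. The count was 13 without t6 366, and 4 with limma voom and quality weights. Mb, myoglobin, was at 32.7, 1.41, 21.6, 45.9 and 128 CPM at t6, against 0.551 to 3.5 CPM with a median of 2.1 at t0, with overlap at t6 349. Its value of 4.50 ± 0.82 (0.0001) was 3.64 without t6 368, and limma voom with quality weights did not call it (0.091). Smooth muscle and pericyte genes gave 8 higher and 1 lower of 13, and 4 higher without t6 368. Des, desmin, which both lists hold, was at 19.4, 11.4, 26.4, 88.4 and 116 CPM at t6, against 0.273 to 6.7 CPM with a median of 1.36 at t0 (4.20 ± 0.93, 0.00087). Myl9, a regulatory myosin light chain, was at 9.84, 38.8, 22.5, 27.6 and 57.3 CPM at t6, against 3.89 to 8.23 CPM with a median of 6.44 at t0 (2.27 ± 0.37, 2.5e-05). No member of either list was at 0 in all t6 libraries or in all t0 libraries, and the part of muscle RNA in the other results was not tested.

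Other cell types had few called genes. Of 14 endothelial genes 2 fell (1 without the libraries of over 10% haemoglobin or Rn45s), of 18 fibroblast genes 1 fell, of 9 adipocyte genes 1 rose (2 without t0 374), and of 14 erythroid and platelet genes 1 rose, the platelet factor Pf4. The erythroid count was 10 without t0 357 and 0 without t6 349 or any of the other 5 t0 libraries, and 2 without the libraries of over 10% haemoglobin or Rn45s. Fibroblast genes gave 6 lower without t6 368. Among cartilage genes Col11a2 fell (−1.51 ± 0.34, 0.00096), Col2a1 fell and Chad, which the club cell list also holds, rose, of 5 tested, and 1 fell without t6 341, 365 or 366 or t0 374. Summed erythroid and platelet CPM was 4951 to 171760 at t6 and 211 to 280811 at t0.

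**Figure D4:**
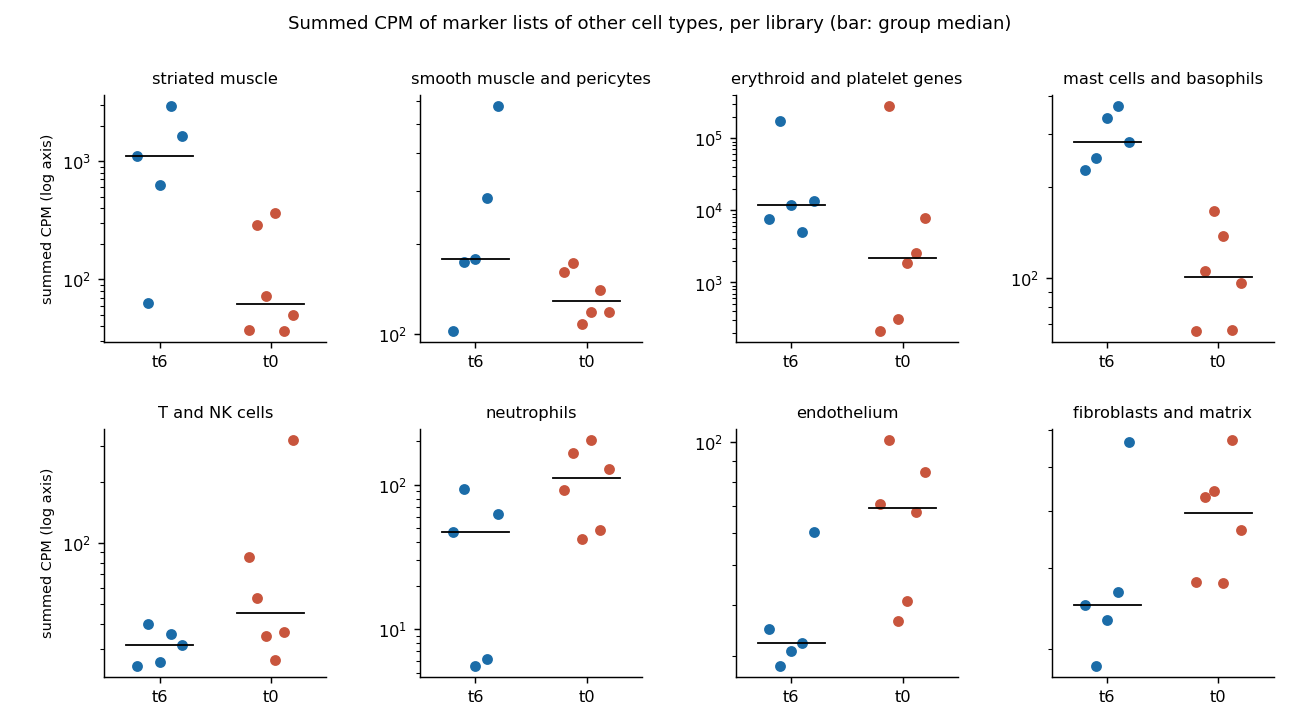
Summed TMM-scaled CPM of 8 marker lists of other cell types in each library, on log axes, with t6 (blue) left of t0 (red) and the group median as a bar. Mast cell sums are apart (228 to 371 CPM at t6, 66.5 to 167 CPM at t0), and striated muscle sums are above all t0 libraries in 4 of the 5 t6 libraries.

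By size alone, the rule named 8 genes in each direction among those with at least 5 CPM in the higher group and no overlap. Beside Scgb1a1, Sftpb, Des and Sult1c1, the 8 that rose held Tbata, which was at 24.4, 24.6, 27.1, 27 and 7.61 CPM at t6, against 0.459 to 3.39 CPM with a median of 0.809 at t0 (4.16 ± 0.45, 1.9e-07, and 4.89 without t0 359). The protocadherin Pcdhb1, with close copies, was at 5.57 to 9.05 CPM at t6 and 0.138 to 1.19 CPM at t0 (3.69 ± 0.49, 1.5e-06). Hspb7, a small heat shock protein of muscle, was at 2.54 to 17.3 CPM at t6 and 0.165 to 1.28 CPM at t0 (3.62 ± 0.73, 0.00028), and Speer4e at 3.57 to 22.3 CPM at t6 and 0.142 to 2.43 CPM at t0 (3.57 ± 0.69, 0.00019). The 8 that fell held Krt20, Krt6a and Marco. Among the others, the ubiquitin-like modifier Ubd was at 0.326, 0.153, 0, 0.0914 and 1.15 CPM at t6, against 1.42 to 96.3 CPM with a median of 7.54 at t0 (−6.03 ± 1.20, 0.00026). It stood at −7.32 without t6 368 and at −4.56 without t0 375. Plcd4, a phospholipase C, was at 0.153 to 0.677 CPM at t6 and 4.25 to 18.3 CPM at t0 (−4.89 ± 0.76, 1.1e-05). F10, which encodes coagulation factor X, was at 0.853 to 2.69 CPM at t6 and 16.2 to 96.1 CPM at t0 (−4.85 ± 0.82, 4.3e-05). Ear1, an eosinophil-associated ribonuclease with close copies, was at 0.0287 to 1.95 CPM at t6 and 7.58 to 42.6 CPM at t0 (−4.72 ± 1.00, 0.00048), and Gpnmb, a membrane glycoprotein of macrophages, at 2.43 to 23.1 CPM at t6 and 84.6 to 554 CPM at t0 (−4.72 ± 0.77, 3e-05).

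By p-value, 5 genes were named in each direction. Higher at t6, beside Scgb1a1, were Sec14l4 (1.89 ± 0.15, 6.8e-09), the fatty acid desaturase gene Fads3, the ligand Wnt5b and the adhesion protein Tenm4 (2.69 ± 0.26, 7.4e-08). Fads3 (chromosome 19, 10041548 to 10059671) was at 106, 128, 144, 133 and 100 CPM at t6, against 14 to 43.6 CPM with a median of 19.2 at t0 (2.36 ± 0.20, 8.9e-09), and was above the baseline mean of 45.2 CPM at t6 (1.43 ± 0.19, 3e-05) and below it at t0 (−0.93, 0.00022). Wnt5b was at 21.2, 26.4, 44.1, 37.6 and 29.5 CPM at t6, against 3.69 to 8.99 CPM with a median of 6.82 at t0 (2.28 ± 0.21, 2e-08). It too was above its baseline mean of 11.6 CPM at t6 (1.46 ± 0.20, 3e-05). Lower at t6, beside Zmat3 and Cdkn1a, were the carboxylesterase Ces2f, at 4.02 to 5.73 CPM at t6 and 29.9 to 49.8 CPM at t0 (−2.89 ± 0.23, 5.4e-09), the GABA receptor partner Kctd12, at 30.9 to 62.7 CPM at t6 and 129 to 229 CPM at t0 (−2.07 ± 0.18, 1.3e-08), and Tmem229b, at 8.25 to 12.4 CPM at t6 and 30.4 to 49.8 CPM at t0 (−1.71 ± 0.15, 2e-08). Each of these genes was without overlap.

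Set beside baseline, 1311 genes were called at t6 (8.83%) and 6761 at t0 (45.5%). Both counts use the same 6 baseline libraries, so the values are given side by side only. In the axoneme list 1 of 47 genes was higher and 0 lower at t6, against 0 higher and 47 lower at t0. For p53 targets 0 were higher and 3 lower of 35 at t6, against 23 higher and 3 lower at t0, and for mitosis 0 higher and 2 lower of 42 at t6, against 29 higher and 1 lower at t0. In the macrophage list 1 was higher and 0 lower of 24 at t6, against 19 higher and 1 lower at t0. Basal cell genes gave 1 higher and 1 lower of 20 at t6, against 13 higher and 0 lower at t0. Of the 52 lists, 12 held at least 6 genes called at t6 against baseline. Besides the club cell, cornified envelope and interferon lists, given above, lower genes prevailed among phase I enzymes (1 higher and 8 lower of 32), secreted defence proteins (1 higher and 5 lower of 20), tuft cells (0 higher and 6 lower of 12), heat shock genes (0 higher and 9 lower of 17) and ribosomal proteins (0 higher and 7 lower of 46). At t0 these lists gave, in the same order, 5 higher and 18 lower, 3 and 9, 5 and 5, 3 and 3, and 9 and 4. Higher genes prevailed in sterol synthesis (7 higher and 0 lower of 20), striated muscle (23 higher and 1 lower of 24), smooth muscle (7 higher and 0 lower of 13) and adipocytes (7 higher and 0 lower of 9). At t0 striated muscle (18 higher and 1 lower) and adipocytes (7 and 0) were mostly higher too. Sterol synthesis gave 1 higher and 7 lower at t0, and smooth muscle 2 higher and 1 lower.

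**Figure D5:**
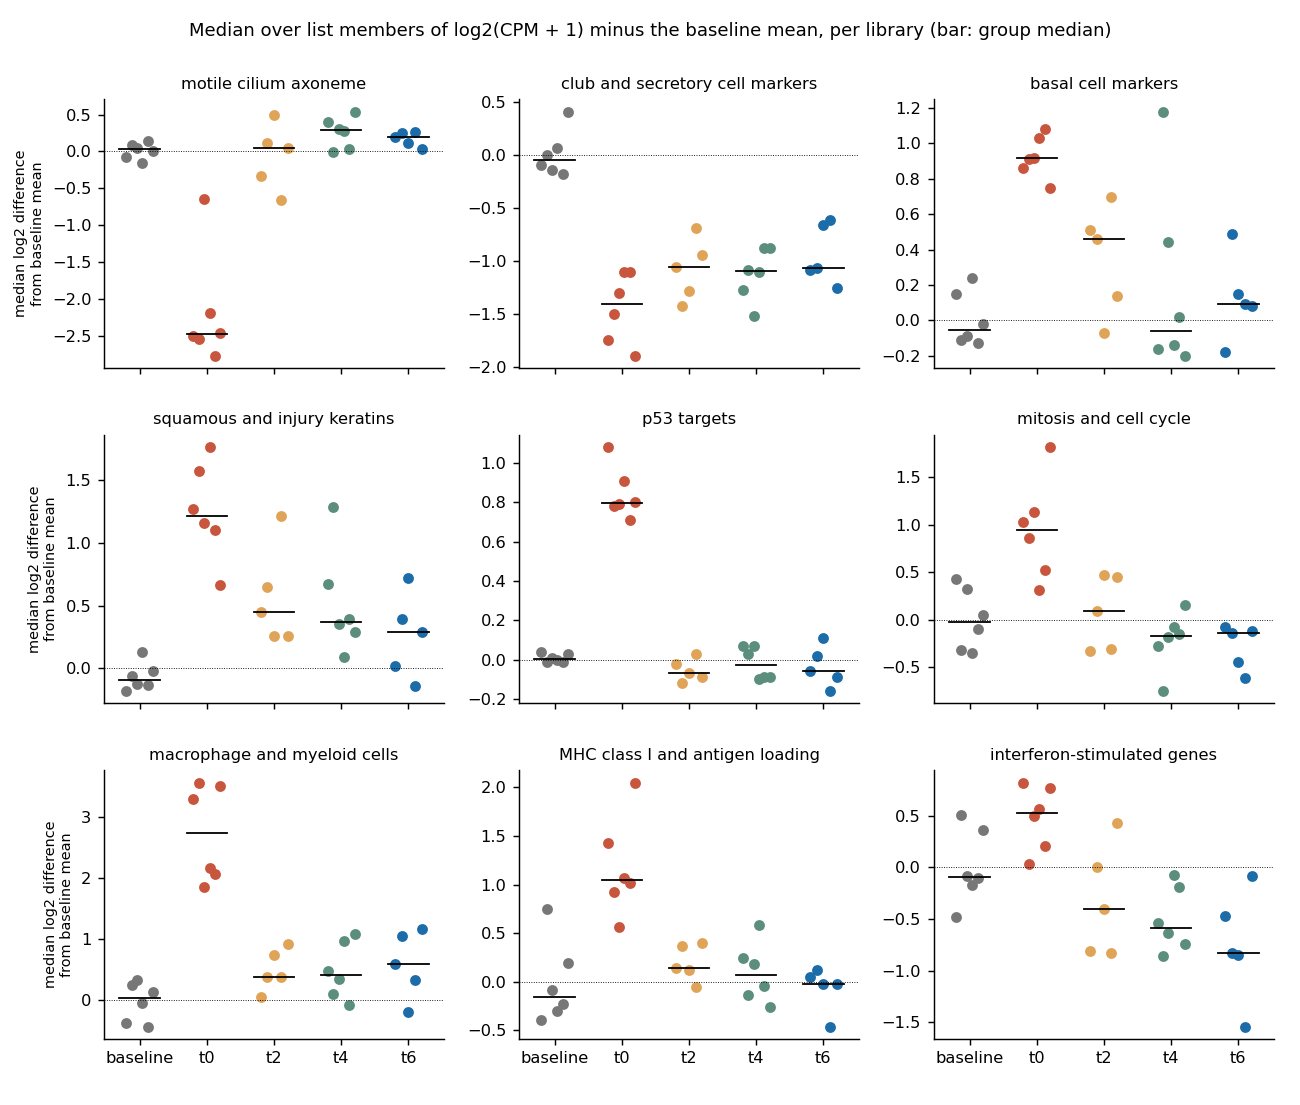
For 9 lists, each point is 1 knockout library at baseline, t0, t2, t4 or t6, and its height is the median over list members of log2(CPM + 1) minus the baseline mean, with the group median as a bar. At t6 the axoneme list lies at 0.03 to 0.26 and the club cell list at −1.25 to −0.61, and at t0 they lie at −2.77 to −0.65 and at −1.89 to −1.10.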

How the data were processed

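RNA-seq of tracheal brushings was deposited as 1 table of all libraries. Its values are the deposited estimated counts per gene, of which 76.3% of those above 0 were whole within 0.01, and they were rounded to whole numbers here. Reads were processed with STAR 2.4.1d, Bowtie2 2.1.0 and Partek on mm10, per the submitters' processing notes. How reads shared by near-identical genes were counted, and whether strand was used, is not given in the sources used here.

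The test covered genes that reached 1 CPM (deposited counts scaled to library size) in 5 or more of the 28 knockout libraries, and was run with edgeR 4.0.16 (R 4.3.3): TMM scaling, 1 mean per group over 5 groups, the robust quasi-likelihood test and Benjamini-Hochberg adjustment, called at 0.05. Per-library values are CPM. Alternatives used limma 3.58.1 and DESeq2 1.42.0. Figures were drawn with matplotlib 3.10.9. Depth was 18574883 to 37609774 counts per library. On simulated counts for 14847 genes, 13.4% of 67 genes changed 1.5-fold, 52.2% of 67 changed 2-fold and 86.4% of 66 changed 4-fold were recovered, with 4 false calls. Only these genes were changed in the simulation, a far smaller share than the 38.7% called in the data. Because the adjustment depends on that share, the percentages recovered do not carry over to this comparison. Replicates of a group differed by more than sampling noise.

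The comparison and the 52 gene lists (1095 of 1106 symbols found) were chosen with earlier results of these data known. The rule named Gprc5a; the 8 largest rises and falls among called genes of at least 5 CPM in the higher group without overlap; the 5 smallest p-values each way; in lists with at least 3 called genes, the 2 with the smallest p (1 in lists of secondary interest); and, in the main lists, the gene with the smallest p against the list's majority. Predicted genes and those named by clone or accession, microRNA and small nucleolar RNA genes, Xist, Y-linked genes and 27 symbols turned into dates were left out of the choices by size and p. This gave 101 genes, of which not all are reported here, and others were named after their values were seen. Coordinates are mm10, with each end in the table reduced by 1 to match RefSeq. Promoters are from RefSeq.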

Additional observations from a re-analysis of the deposited data

Results flagged for a closer look

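In 202 groups of values, those of 101 genes at t6 and at t0, 18 held 1 library far from the others of its group by Dixon's test. Chance alone gives about 1 in 20 for independent, normally distributed values. These genes share libraries and were chosen from the same data, so the 18 cannot be judged against that rate. Of the 18, 10 lay in t0 359. That library was above the other 5 t0 libraries for Cfap43 (184 CPM, others 51.4 to 73.7), Dnaaf3 (80.2, others 22.3 to 33), Rfx3 (29.4, others 9.45 to 13.1), Tbata (3.39, others 0.459 to 0.957), Polk (52.3, others 21.9 to 25.8), Ogg1 (18.4, others 10.6 to 12.3) and Bnip3 (20.1, others 5.93 to 9.13). It was below them for Muc20 (91.7 CPM, others 143 to 184), Prdm1 (2.73, others 8.26 to 13.6) and Tapbp (304, others 454 to 571).

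At t6, library 368 was below the other 4 for Tbata (7.61 CPM, others 24.4 to 27.1), the ferritin gene Fth1 (718, others 1219 to 1461) and Atp6v1c2 (37.8, others 87.8 to 115), and library 349 was below them for Sult1c1 (19 CPM, others 59.7 to 68.6). At t0, library 375 was above the others for Tmem229b (49.8 CPM, others 30.4 to 35.1) and Cd3d (13.7, others 0.607 to 1.82). Library 367 was above them for Oasl1 (73.2 CPM, others 38.3 to 46.8), and library 332 below them for Sftpb (0.273 CPM, others 1.85 to 3.45).

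The change from t0 to t6 differed between females and males in 2 of 14847 genes by edgeR's interaction test (0.0135%), with 570 at an unadjusted p under 0.05. Both belong to a set of near-identical methyltransferase-like genes, whose shared reads make them uncertain. Mettl7a3 changed by 0.08 in females and 4.28 in males (log2), a female minus male difference of −4.20 (adjusted p = 0.024). For Mettl7a2 the values were 0.30 in females and 4.71 in males, a difference of −4.41 (adjusted p = 0.049).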

How the results depend on the processing

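For 157 results, 27 alternatives gave 4234 values. Of these values, 4095 were kept: a gene kept its direction and side of the threshold, or a count of genes stayed within 1.5 times. There were 109 counts that moved beyond 1.5 times, 28 calls were lost and 2 values changed sign. The 2 were of Gprc5a, which was not called: −0.19 without the libraries of over 10% haemoglobin or Rn45s (adjusted p = 0.89) and −0.24 without 6 libraries that stand apart (0.81), in edgeR. Without the libraries of over 10% haemoglobin or Rn45s 1821 genes fell, and the cause was not tested. Leaving out 1 of the 11 t6 and t0 libraries at a time gave 4862 to 6089 called genes, 2398 to 2853 higher, 2464 to 3236 lower and 2493 to 2989 changed at least 2-fold. Without t2 339, a library of neither group, 6753 genes were called, 3142 higher and 3611 lower, and 3023 changed at least 2-fold. Of the 100 called genes named by the rule, 91 were called in the same direction under every alternative. The other 9 were E2f4, Cd3d, Prdm1, Cd74, H2-Ab1, Ifi35, Braf, Chgb and Mb, as given with each. The rule chose these 100 genes by a small p or a large change, so the 91 do not stand for called genes in general. Of all 5744 called genes, 4028 were called in the same direction without the libraries of over 10% haemoglobin or Rn45s. That was the fewest among the 27 alternatives. The 27 alternatives called 4194 to 6870 genes, the most with limma voom and quality weights. DESeq2 called 6103 and gave 36 genes no adjusted p, and the quasi-likelihood test with only the t6 and t0 libraries called 5793. No paired analysis was possible because each library has its own animal number, so t6 and t0 share none. Depth limits the least abundant genes: Gprc5a rests on 136 counts at t6 and 77 at t0.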
